A study of Sus scrofa with 36 samples.

Results

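Complement and coagulation are both run by proteins that the liver releases into blood, and the transcripts of 39 of their genes were looked up on pig liver arrays by gene symbol, RefSeq accession or array description. Of the 39, 36 had at least 1 probe well above background on 6 or more of 36 arrays, and they stood among 11434 genes measured in the same way. No probe matched F11, F13B or SERPINF2, and nothing is reported for them. The rule that picked their probes used gene names and detection, and no difference between groups. The list of 39 itself was drawn up with earlier results of these data known, so it was not blind to such differences.

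The livers came from growing castrated male pigs of 3 breeds, Large White (LW), Creole (CR) and their F1 cross, each with 6 animals kept at thermoneutrality (TN) and 6 under heat stress (HS). Large White is a lean commercial breed and Creole a small local breed of the Caribbean. The sample labels give 24 °C for TN and 30 °C for HS, while the growth protocol gives 32 °C over 5 days for HS. HS pigs were killed on later days than TN pigs. The study reports that the pigs ate less under heat. The effects of heat, of lower feed intake, of day of slaughter and of age cannot be told apart, and pens, litters and parents were not given by sample. By the study's methods the pigs of each breed came in 3 blocks of littermates and shared pens. The fits below treat the animals as independent, so their p-values can be too small, above all those between breeds. Each liver was hybridised to a single one-colour array of 60-base probes, and p-values below measure the spread between these animals.

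Complement is a cascade of plasma proteins that marks and punctures foreign cells. It starts when C1q, carrying the proteases C1r and C1s, binds antibody, or when mannose-binding lectin binds sugars on microbes, and it proceeds through C2, C3 and factor B to C5 and the membrane attack complex of C6 to C9. Coagulation is a cascade of proteases that ends in thrombin (F2) cutting fibrinogen (FGA, FGB, FGG) into fibrin, with protein C, protein S, antithrombin and heparin cofactor II as brakes and plasminogen as the source of the enzyme that dissolves clots. Hepatocytes make nearly all of these proteins, whereas the C1q chains are made mostly by macrophages, in the liver the Kupffer cells.

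Probe sequences follow for the genes on which the results turn, as the array files give them. MBL2, the mannose-binding lectin gene with the widest spread between animals, was read by a pair of probes with the same sequence, and the capitals mark the bases shared by the pair, which are all of them.
MBL2: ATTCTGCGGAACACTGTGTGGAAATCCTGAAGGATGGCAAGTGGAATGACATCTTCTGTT
C1QB and C1QC belong to the C1q chains, which were all lower in CR and in F1 than in LW, and are shown by 1 probe each.
C1QB: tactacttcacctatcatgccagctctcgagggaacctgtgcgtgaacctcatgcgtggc
C1QC: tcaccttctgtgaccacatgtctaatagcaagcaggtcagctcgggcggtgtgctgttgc
PROC, protein C, was read by a single probe and was called between temperatures and between breeds.
PROC: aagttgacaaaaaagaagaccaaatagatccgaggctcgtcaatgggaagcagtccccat
VTN, vitronectin, was the other gene called between temperatures, and 4 of its 9 probes overlap. Capitals mark the 21 bases that these 4 probes have in common. The probe listed last has no position in the files, and only this stretch and a few bases beside it match the others.
VTN probe at position 768: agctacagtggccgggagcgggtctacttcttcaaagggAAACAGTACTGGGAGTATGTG
VTN probe at position 778: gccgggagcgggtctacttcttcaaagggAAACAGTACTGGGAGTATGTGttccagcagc
VTN probe at position 807: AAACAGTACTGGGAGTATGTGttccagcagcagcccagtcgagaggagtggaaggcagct
VTN probe without a position: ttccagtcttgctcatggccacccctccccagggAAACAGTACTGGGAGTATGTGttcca

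The 36 genes were read by 92 probes, and all 92 were well above background on all 36 arrays. Levels are given as log2 of the quantile-normalised median signal, averaged over a gene's probes, so that 1 unit is a doubling, and a level is compared only with other levels of the same gene. The median signal of an array ranged from 70 to 92 over a background of 18 to 25. Probes of identical sequence give the error between spots of 1 array, which leaves out extraction, labelling and hybridisation, and their difference varied between arrays with an SD of 0.0554 for KLKB1, 0.0821 for MBL2, 0.0847 for F2 and 0.0930 for C3. A group of 5 animals lay apart from their breed on the first principal component of all genes. LW TN 1 and LW TN 6 lay towards the other breeds, and F1 HS 1, F1 HS 2 and F1 TN 3 lay on the LW side. Counts of called genes are therefore also given without these 5 animals, which were chosen after the data had been seen.

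Heat was examined first, as the difference of HS from TN within breeds over the 36 animals. At an adjusted p below 0.05 (limma, Benjamini-Hochberg over all 11434 genes), 2 of the 36 genes were called, PROC and VTN, both higher in HS. That is 5.56% of the members, beside 1.36% of all genes called in either direction, 0.621% called higher and 0.743% called lower. At an unadjusted p below 0.05 there were 11 members (30.6%, against 14.3% of all genes), and 28 of the 36 lay above zero (48.3% of all genes did). The median difference of the members was 0.0939, against -0.00316 over all genes, and the range ran from -0.22 for MBL2 to 0.20 for C8B. Neither PROC nor VTN stayed past the threshold when the 5 animals lying apart were left out, and the only member then called was C1QA, lower in HS by 0.32 (adjusted p = 0.0222). The animals left out include high HS and low TN values of C1QA, so that call follows in part from their removal.

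VTN encodes vitronectin, a plasma protein that keeps the membrane attack complex out of host membranes and steadies an inhibitor of clot lysis. In LW its levels ran from 14.45 to 14.68 with a median of 14.53 in TN, and from 14.65 to 14.86 with a median of 14.72 in HS. In CR they ran from 14.47 to 14.79 (median 14.67) in TN and from 14.44 to 14.83 (median 14.74) in HS. In F1 they ran from 14.27 to 14.67 (median 14.53) in TN and from 14.71 to 14.77 (median 14.74) in HS. The 2 temperatures did not overlap in F1, touched in LW and overlapped over most of their range in CR, and 17 of 18 HS animals lay above the TN mean of their breed. VTN was 0.16 log2 units higher in HS (SE 0.0401, 95% interval 0.08 to 0.24, a 1.12-fold difference, limma adjusted p = 0.0342). All 9 probes lay on the same side and 3 passed the threshold on their own. The overlapping probes printed above disagreed, with 0.23 (position 768), 0.20 (position 778) and 0.20 (position 807) against 0.01 for the probe without a position, the dimmest of the 9. Over the 36 arrays that probe correlated with the other 3 at -0.363, -0.392 and -0.428, while those 3 correlated with each other at 0.913 to 0.947. Within the 4 slides that held 8 arrays each, the difference ran from 0.08 to 0.27.

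PROC encodes protein C, which when activated cuts factors V and VIII and so slows clotting. Its levels in LW ran from 13.74 to 14.29 with a median of 14.02 in TN, and from 14.11 to 14.48 with a median of 14.29 in HS. In CR they ran from 13.47 to 13.91 (median 13.74) in TN and from 13.66 to 13.98 (median 13.86) in HS. In F1 they ran from 13.79 to 14.07 (median 13.95) in TN and from 13.93 to 14.39 (median 14.14) in HS. The temperatures overlapped in every breed, and 16 of 18 HS animals lay above the TN mean of their breed. PROC was 0.19 log2 units higher in HS (SE 0.0496, 95% interval 0.09 to 0.29, 1.14-fold, limma adjusted p = 0.0400), and from 0.09 to 0.26 higher within the 4 slides. Both calls sat close to the threshold. Leaving out 1 array ended the call of PROC for 17 arrays (LW TN 3 and 6, LW HS 1, 2 and 4, CR TN 3, 5 and 6, CR HS 1, 3 and 5, F1 TN 1, 2, 3 and 4, and F1 HS 2 and 3), with an adjusted p of 0.0283 to 0.205 over the 51 alternatives run. It ended the call of VTN for 8 arrays (LW HS 4, CR TN 5 and 6, CR HS 1 and 5, F1 TN 3 and 4, and F1 HS 2), with a range of 0.00923 to 0.268, and each call was also lost without any of the 5 slides.

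**Figure D1:**
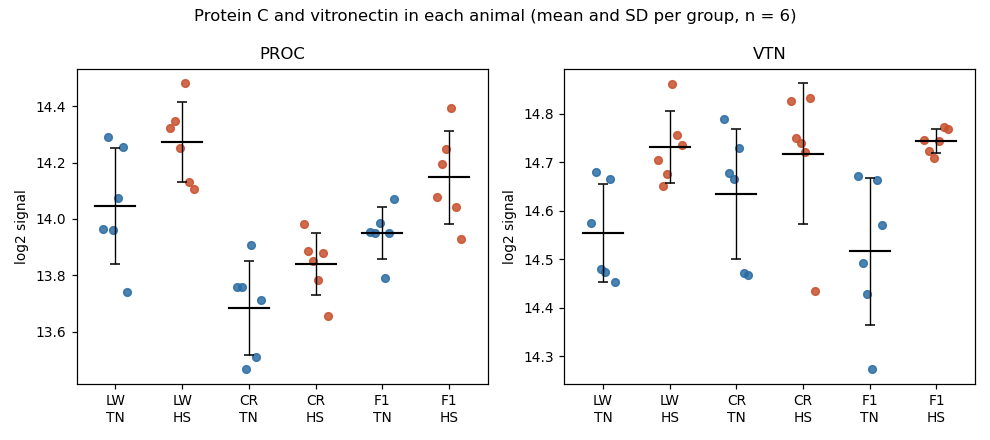
Level of PROC (left) and VTN (right) in each pig, as log2 of the normalised signal (vertical axis), in the 6 groups of 6 animals, with TN in blue and HS in red, the black line at the group mean and the bar at 1 SD. The HS mean lies above the TN mean in every breed for both genes, with VTN in F1 between 14.27 and 14.67 in TN and between 14.71 and 14.77 in HS.

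Among the 7 terminal genes 6 lay above zero and none was called. C8B, a chain of the membrane attack complex, differed by 0.20 (95% interval 0.04 to 0.35, adjusted p = 0.183), C5 by 0.16 (0.03 to 0.29, adjusted p = 0.203), C8A by 0.15 (adjusted p = 0.23) and C8G by 0.11 (adjusted p = 0.26). CFI, the protease that inactivates C3b, differed by 0.19 (0.07 to 0.31, adjusted p = 0.0925) and was above its breed's TN mean in 16 of 18 HS animals. PLG, plasminogen, differed by 0.12 (adjusted p = 0.0947) and SERPIND1, heparin cofactor II, by 0.13 (adjusted p = 0.155). Of the members chosen by name, C3, the protein on which all complement routes meet, differed by 0.09 (-0.01 to 0.19, adjusted p = 0.419), CFB by 0.07 (adjusted p = 0.575), F2 by 0.06 (adjusted p = 0.463), F7 by 0.10 (adjusted p = 0.516), SERPINC1 (antithrombin) by 0.08 (adjusted p = 0.471), FGA by 0.13 (adjusted p = 0.517) and C9 by 0.16 (-0.13 to 0.45, adjusted p = 0.681). On the other side of zero stood C1QC at -0.18, C1QA at -0.15, C4BPA at -0.13, KNG1 at -0.09, C7 at -0.08, C1QB at -0.06 and C2 at -0.02, besides MBL2. None of these was called, and all intervals not printed here were no wider than that of C9 except for MBL2, whose interval ran from -1.28 to 0.85. Of the 41 cell type markers measured, 0 were called between temperatures by limma, beside 1.36% of all genes, so few calls would be looked for among 41. Above zero lay 24 of the 41. Among these were 6 of the 7 hepatocyte markers, with a median of 0.0436, so the upward tilt was not particular to the members.

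Taken breed by breed, no member was called between HS and TN by limma, beside 0% of all genes for LW, 0.105% for CR and 0.00875% for F1. At an unadjusted p below 0.05 there were 3 members for LW (5.11% of all genes), 1 for CR (8.21%) and 9 for F1 (10%). Above zero lay 27 of the 36 members for LW (49.8% of all genes), 26 for CR (46.7%) and 29 for F1 (50.1%). C8B in F1 was the largest of these differences relative to its error, with levels from 12.47 to 13.29 (median 12.76) in TN and from 13.08 to 13.34 (median 13.22) in HS, a difference of 0.43 (95% interval 0.18 to 0.68, adjusted p = 0.224). It passed the threshold only when F1 TN 5 or slide 5 was left out. KNG1, which encodes the kininogens that carry bradykinin, differed by 0.10 among LW pigs, by -0.26 among CR pigs and by -0.10 among F1 pigs. The levels of KNG1 in CR ran from 13.96 to 14.34 (median 14.19) in TN and from 13.69 to 14.08 (median 13.95) in HS (adjusted p = 0.347).

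The test of whether the heat difference itself depended on breed called no member and 0% of all genes at an adjusted p below 0.05 (limma F test). At an unadjusted p below 0.05 there was 1 member, KNG1, beside 3.69% of all genes. The next in order were C4BPA, C8B, C5 and SERPIND1, and all members had an adjusted p of 0.991 or above. For 22 members the group values were examined one by one. None had all HS animals above all TN animals in 1 breed and all below them in another. That rule is so strict that its empty result cannot show that the breeds responded alike.

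The breeds differed far more than the temperatures did. CR and LW, compared within temperature over 12 animals each, were told apart by 19 of the 36 members, 1 higher and 18 lower in CR (limma adjusted p below 0.05). That is 52.8% of the members, beside 26.3% of all genes called in either direction, 15.4% lower and 10.9% higher. The median difference was -0.20 over the members and -0.01 over all genes, and 6 of the 36 lay above zero (46.2% of all genes did). At an unadjusted p below 0.05 there were 25 (37.4% of all genes). Without the 5 animals lying apart, 20 were called, 18 of them the same genes. The ranges of the 12 LW and 12 CR animals did not overlap for 3 members, C1QB, C1QC and FGG, as for 0.507% of all genes. By role, CR was called lower for 4 of 5 genes of the C1 complex, 1 of 4 convertase and 4 of 7 terminal genes. The same held for 1 of 3 regulators, 2 of 5 vitamin K dependent factors with their cofactor and 2 of 3 fibrinogen chains. It also held for 3 of 4 anticoagulants and plasminogen, and for none of the 3 contact factors. The 4 terminal genes include C8A, whose probes disagree. Without the probes named only by a protein name C8A was called higher, and the terminal genes then stood at 3 lower and 2 higher.

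**Figure D2:**
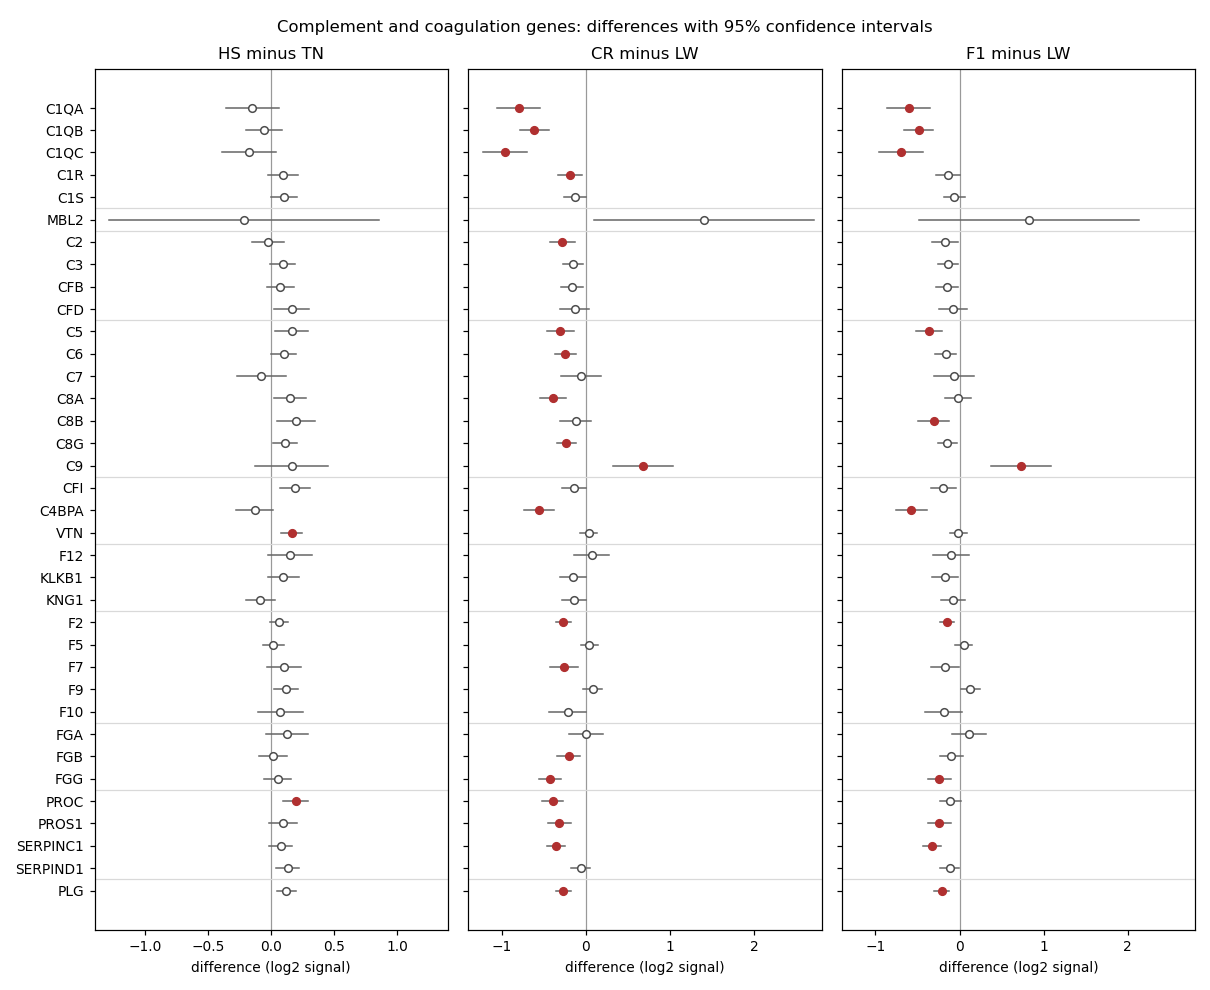
Difference in log2 level (horizontal axis) of each of the 36 genes, grouped by role, for HS minus TN, CR minus LW and F1 minus LW, with the 95% interval as a bar and called genes filled in red. Most members lie left of zero in both breed panels, where 19 and 12 genes are called, and only PROC and VTN are called between temperatures.

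The 3 C1q chains were all called lower in CR, and C1QC and C1QA had the largest called differences of any member between CR and LW. C1QC ran from 11.97 to 12.80 (median 12.24) in LW, from 10.88 to 11.83 (median 11.36) in CR and from 10.85 to 12.24 (median 11.60) in F1. C1QA ran from 10.43 to 11.35 (median 11.04) in LW, from 9.90 to 10.60 (median 10.15) in CR and from 9.64 to 11.06 (median 10.38) in F1. C1QB ran from 10.72 to 11.36 (median 11.08) in LW, from 10.18 to 10.65 (median 10.47) in CR and from 10.24 to 11.04 (median 10.45) in F1. CR thus lay wholly below LW for C1QB and C1QC and shared a narrow stretch with it for C1QA, with F1 reaching from the CR range into the LW range. Relative to LW, CR was lower by 0.96 for C1QC (95% interval -1.22 to -0.70, 1.95-fold, adjusted p = 1.83e-06), by 0.80 for C1QA (-1.06 to -0.55, 1.74-fold, adjusted p = 2e-05) and by 0.61 for C1QB (-0.79 to -0.44, 1.53-fold, adjusted p = 4.84e-06). F1 was lower than LW by 0.70, 0.61 and 0.49 in the same order (adjusted p = 0.000545, 0.00171 and 0.000451). These 6 calls held in all 51 alternatives.

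C1QC was read by 1 probe only. Both probes of C1QA gave similar CR differences (-0.84 and -0.77), whereas those of C1QB gave -0.97 and -0.25, so the mean of C1QB over its probes is smaller than that of its brighter probe. F1 HS 1 and F1 HS 2, among the animals lying apart, had C1QA levels of 11.06 and 10.99, near the LW median, and LW TN 1 and LW TN 6 had 10.65 and 10.43, the lowest among LW TN. Without the 5 animals the F1 difference from LW was -0.93 for C1QA, -0.98 for C1QC and -0.71 for C1QB, but these animals were picked for lying between the breeds, so a larger difference follows from the choice. C1R, which encodes the protease that C1q carries and is a hepatocyte product, was lower in CR by 0.19 (adjusted p = 0.0438), and its call was lost without any of 14 arrays (LW TN 1, 4, 5 and 6, LW HS 3, 4, 5 and 6, CR TN 2, 5 and 6, and CR HS 4, 5 and 6). C1S was not called (-0.13, -0.26 to -0.00, adjusted p = 0.133).

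Part of the macrophage markers differed between breeds in the same direction as the C1q chains. Of 11 markers of Kupffer cells and macrophages, 8 were measured (not MARCO, ADGRE1 or TIMD4), and 5 of the 8 were called lower in CR than in LW, CD163 by 1.31, VSIG4 by 0.91, LYZ by 0.88, CSF1R by 0.56 and AIF1 by 0.34, with a median of -0.45 over the 8. CD68 (-0.21), CD14 (-0.18) and CD5L (0.11) were not called. The mean level of the 8 ran from 9.76 to 10.30 in LW TN, 10.09 to 10.24 in LW HS, 9.45 to 9.79 in CR TN, 9.41 to 9.69 in CR HS, 9.54 to 9.85 in F1 TN and 9.35 to 10.12 in F1 HS. F1 was called lower than LW for 5 of the 8 and lay below zero for all 8, with a median of -0.47. Endothelial markers were called lower in CR for 5 of 7, lymphocyte markers for 4 of 7 and stellate cell and fibroblast markers for 2 of 8. Called or not, all 7 lymphocyte and all 8 stellate cell and fibroblast markers lay below zero, and all but 1 endothelial marker. Of the 4 bile duct markers 1, KRT7, was called higher in CR, by 0.74. Over all genes 15.4% were called lower and 10.9% higher in CR minus LW, and 10.8% lower and 6.21% higher in F1 minus LW. Of the 7 hepatocyte markers measured, APOA1 was lower in CR by 0.32 and the others were not called (HNF4A differed by 0.18 and APOB by 0.10), and in F1 APOA1 was lower than in LW by 0.26 and APOB higher by 0.20. In whole liver, fewer cells of a type and less RNA per cell cannot be told apart, and the part of these markers in the C1q differences was not tested.

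**Figure D3:**
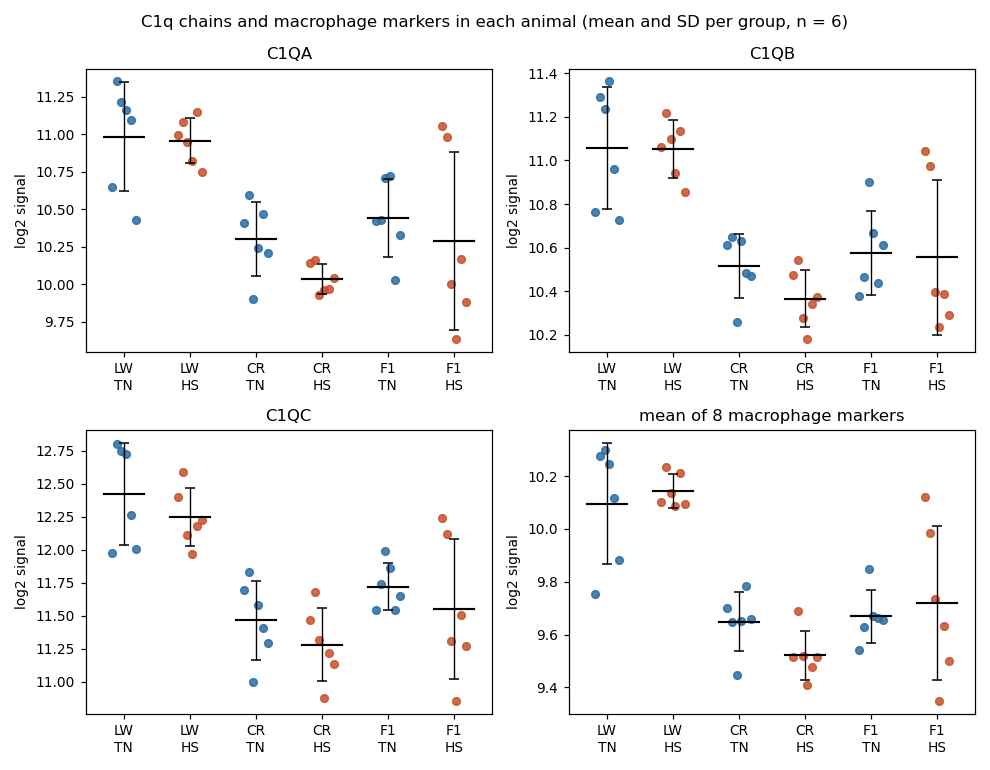
Levels of C1QA, C1QB and C1QC and the mean level of the macrophage markers in each pig (vertical axis, log2 of the normalised signal), by group of 6 animals, with the group mean as a black line, 1 SD as a bar, TN in blue and HS in red. The CR group means lie below the LW group means in all panels, with medians over 12 animals of 11.36 against 12.24 for C1QC, and F1 HS spreads over both ranges.

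C4BPA was another large breed difference, with every probe lower in CR and in F1 than in LW. It encodes the alpha chain of C4b-binding protein, which restrains the classical and lectin routes. Its levels ran from 13.55 to 14.09 (median 13.91) in LW, from 13.12 to 13.61 (median 13.36) in CR and from 12.79 to 13.84 (median 13.19) in F1. CR was lower than LW by 0.56 (95% interval -0.74 to -0.38, 1.48-fold, adjusted p = 2.13e-05) and F1 by 0.57 (-0.75 to -0.39, adjusted p = 0.000109), with all 7 probes called in each comparison. The 7 CR differences ranged from -0.74 to -0.33, and the brightest probe gave the smallest. The gene annotation holds 2 loci under the name C4BPA, and which of them each probe reads was not tested. The F1 cross was also set against the mean of its parent breeds, and C4BPA was the only member called, lower by 0.29 (-0.45 to -0.13, adjusted p = 0.0478), which is 2.78% of the members beside 1.28% of all genes called and 0.892% called lower. That call was lost in 34 of the 51 alternatives, among them leaving out any of 25 arrays (LW TN 2 to 5, LW HS 1 to 6, CR TN 1, 2, 4, 5 and 6, CR HS 1 to 4, F1 TN 1 and 6, and F1 HS 3 to 6). Without the 5 animals lying apart, 8 members were called against the mid-parent value, C9 and C8A higher and C4BPA, C1QA, C1QB, C1QC, C8B and SERPINC1 lower, a count that depends on the choice of these animals for lying between the breeds.

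C9 was the member called higher in CR, besides C8A when the probe named by a protein name is left out. C9 polymerises into the wall of the membrane pore. Its levels ran from 9.60 to 11.60 (median 10.84) in LW, from 10.84 to 11.71 (median 11.34) in CR and from 10.55 to 11.78 (median 11.40) in F1. LW spread over a wider range than the other breeds and overlapped both. C9 was higher than in LW by 0.68 in CR (95% interval 0.32 to 1.04, 1.60-fold, adjusted p = 0.00414, 12 of 12 animals above the LW mean) and by 0.73 in F1 (0.37 to 1.08, 1.66-fold, adjusted p = 0.00511). Both C9 probes were called in CR (0.52 and 0.84). Without slide 2 the differences were 0.41 and 0.49, and neither call held.

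C5, whose fragment opens the terminal pathway, was lower by 0.31 in CR (adjusted p = 0.00368) and 0.36 in F1 (adjusted p = 0.00215). C6 was lower in CR by 0.25 (adjusted p = 0.00277), from probe differences of -0.30, -0.47 and 0.02, and C8G by 0.23 (adjusted p = 0.00236). C8B was lower in F1 by 0.31 (adjusted p = 0.0188), a call lost without slide 3 or slide 4, and C7 was called in neither comparison (-0.06 in both). C2, a subunit of the classical C3 convertase, was lower in CR by 0.28 (adjusted p = 0.00545). C3 and CFB, the members at the centre of the cascade, differed by -0.15 (-0.28 to -0.03, adjusted p = 0.0573) and -0.16 (-0.29 to -0.03, adjusted p = 0.0553) in CR, just outside the threshold, and leaving out single arrays moved each across it.

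C8A cannot be summed up by 1 number, because its probes disagreed. The gene mean was lower in CR than in LW by 0.39 (adjusted p = 0.00021) and higher in F1 than in CR by 0.37 (adjusted p = 0.00674). At transcript position 711, a probe named only by its protein name, levels ran from 11.87 to 12.54 in LW, from 9.30 to 11.93 in CR and from 11.34 to 12.33 in F1. At position 2064 they ran from 14.96 to 15.29 in LW, from 15.21 to 16.24 in CR and from 15.05 to 15.92 in F1. At position 2028 they ran from 15.49 to 15.98 in LW and from 15.64 to 15.97 in CR. CR was thus low at position 711 and high at position 2064, with differences of -1.86 and 0.65, both called, while the difference of 0.03 at position 2028 was not called. The CR animals at position 711 fell into 6 between 9.30 and 9.79 and 6 between 10.77 and 11.93. Leaving out probes named only by a protein name gave 0.34 for CR minus LW, called in the opposite direction, and -0.13 for F1 minus CR, not called.

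**Figure D4:**
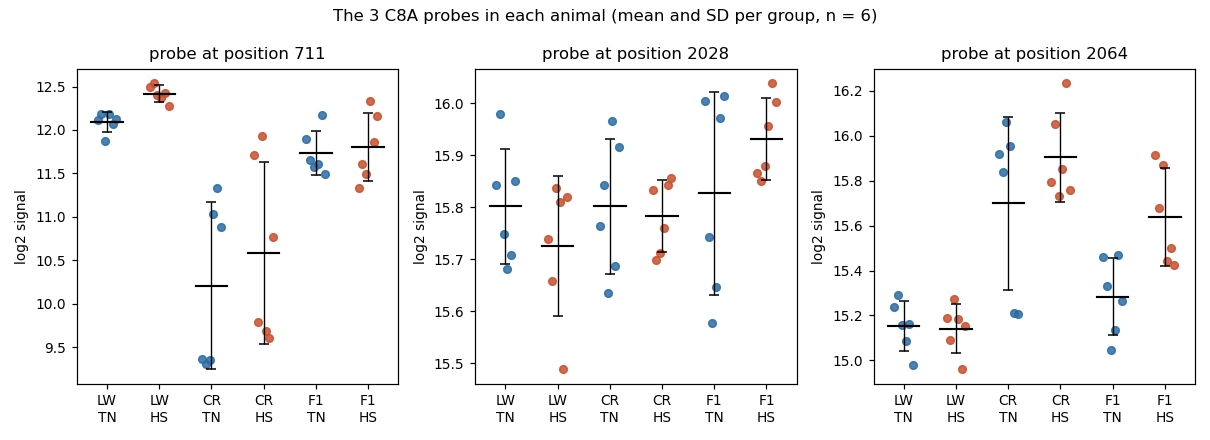
Levels of C8A in each pig (vertical axis, log2 of the normalised signal) at the probes of positions 711, 2028 and 2064, by group of 6 animals, with the group mean as a black line, 1 SD as a bar, TN in blue and HS in red. CR lies below LW at position 711 (9.30 to 11.93 against 11.87 to 12.54) and above it at position 2064 (15.21 to 16.24 against 14.96 to 15.29).

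VTN was the other gene with probes called both ways in CR minus LW, lower at position 679 (-0.18) and higher at position 2097 (0.60) and at the dimmest probe (0.25), so its gene mean near zero is not a uniform reading. Of the 28 members with several probes, all probes lay on the same side for 21 in CR minus LW, 22 in F1 minus LW and 25 in HS minus TN. The other 8 members (C1QC, C8B, F7, F12, FGB, PROC, PROS1 and SERPIND1) were read by 1 probe each. Their differences could not be checked against another probe.

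MBL2 stood apart by its spread. Mannose-binding lectin starts the lectin route of complement. Its SD within groups was 1.69, higher than for 99.9% of the 11434 genes, against a median of 0.178 over the members and 0.170 over all genes. Levels ran from 9.58 to 14.77 (median 10.72) in LW, from 9.55 to 14.52 (median 13.57) in CR and from 9.96 to 13.85 (median 13.26) in F1. The 36 animals fell on either side of a gap, 14 at 11.05 or lower and 22 at 12.56 or higher. The lower 14 held 8 of 12 LW animals (4 TN and 4 HS), 2 of 12 CR animals (1 TN and 1 HS) and 4 of 12 F1 animals (1 TN and 3 HS). The pair of probes followed each other over the 36 arrays with r = 0.999, and the SD of their difference was 0.0821, which covers the error between spots of 1 array and not that of RNA extraction, labelling or hybridisation. The mean was 1.41 higher in CR than in LW (95% interval 0.10 to 2.71, adjusted p = 0.104) and 0.82 higher in F1 (-0.48 to 2.13, adjusted p = 0.413), neither called. The CR difference passed the threshold without CR TN 4, CR HS 5 or LW HS 4.

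**Figure D5:**
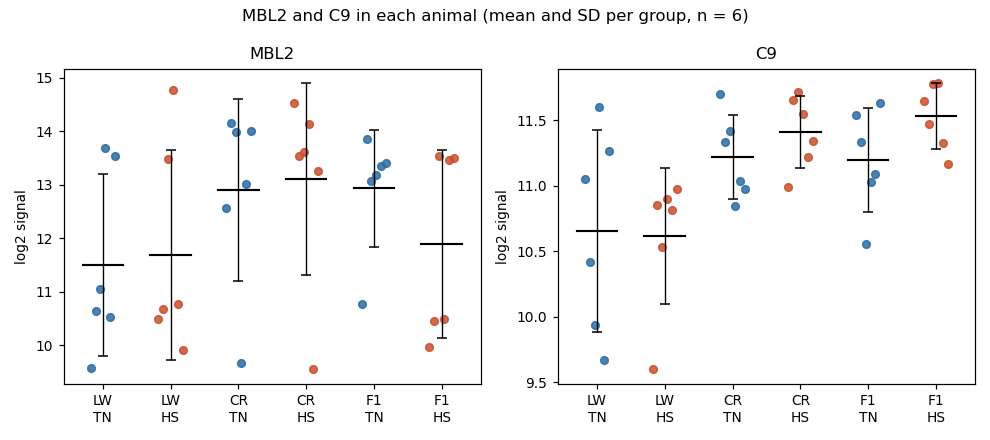
Levels of MBL2 and C9 in each pig (vertical axis, log2 of the normalised signal), by group of 6 animals, with the group mean as a black line, 1 SD as a bar, TN in blue and HS in red. No animal lies between 11.05 and 12.56 for MBL2, and 8 of 12 LW animals lie below that gap against 2 of 12 CR animals.

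On the clotting side every called difference of CR or F1 from LW was lower than LW, by 0.15 to 0.43. In other settings F9 passed the threshold higher in F1 than in LW (0.15 with slide as a block) and so did FGA (0.26 with the brightest probe). FGG, the gamma chain of fibrinogen, ran from 16.19 to 16.57 (median 16.39) in LW, from 15.71 to 16.13 (median 15.98) in CR and from 15.91 to 16.60 (median 16.11) in F1. CR lay wholly below LW, by 0.43 (95% interval -0.56 to -0.30, 1.35-fold, adjusted p = 1.1e-05), with all 3 probes called. FGB was lower in CR by 0.20 (adjusted p = 0.0238), and that call was lost without CR TN 6, slide 4 or slide 5. FGA, the third chain, did not differ by more than its error, with means of 13.05 in both breeds and an interval of -0.20 to 0.20. F1 was called lower than LW for FGG alone among the 3 chains, by 0.24 (limma adjusted p = 0.0109), and not without slide 2, 3 or 4.

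F2, prothrombin, ran from 16.34 to 16.63 (median 16.49) in LW, from 16.04 to 16.44 (median 16.23) in CR and from 16.17 to 16.51 (median 16.30) in F1, lower than LW by 0.27 in CR (adjusted p = 2.23e-05) and by 0.15 in F1 (adjusted p = 0.0147). F7, which with tissue factor starts clotting, was lower in CR by 0.26 (7.76 ± 0.26 in LW against 7.50 ± 0.18 in CR, SD, n = 12, limma adjusted p = 0.0149), a call lost without slide 1, 3 or 4. F5, F9, F10 and F12 were not called in CR, nor were KLKB1 and KNG1. For F9 the probes disagreed (-0.15, and 0.31 called).

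Of the 4 anticoagulants, 3 were called lower in CR, as were some of the factors they restrain. SERPINC1 ran from 16.30 to 16.86 (median 16.67) in LW, from 16.12 to 16.39 (median 16.26) in CR and from 16.07 to 16.50 (median 16.28) in F1, lower by 0.36 in CR (-0.47 to -0.24, adjusted p = 1.58e-05) and 0.33 in F1 (-0.44 to -0.22, adjusted p = 0.000241). The brightest SERPINC1 probe alone gave a smaller CR difference of -0.20. PROS1, protein S, the partner of activated protein C, was lower by 0.32 in CR (adjusted p = 0.00069) and 0.24 in F1 (adjusted p = 0.0143). PROC ran from 13.74 to 14.48 (median 14.19) in LW, from 13.47 to 13.98 (median 13.77) in CR and from 13.79 to 14.39 (median 14.01) in F1. The F1 median lay between those of CR and LW, and PROC was called neither between F1 and LW nor against the mid-parent value. CR was lower than LW by 0.40 (-0.52 to -0.27, 1.32-fold, adjusted p = 1.4e-05), and all 12 F1 animals lay above the CR mean, by 0.29 on average (0.16 to 0.41, adjusted p = 0.00987). SERPIND1 was not called in CR. PLG ran from 16.85 to 17.28 (median 17.05) in LW, from 16.60 to 16.90 (median 16.76) in CR and from 16.68 to 17.10 (median 16.80) in F1, lower by 0.27 in CR (adjusted p = 5.35e-05) and 0.21 in F1 (adjusted p = 0.00201).

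Against LW, F1 had 12 members called, 1 higher and 11 lower (33.3%), beside 17.0% of all genes called, 10.8% lower and 6.21% higher. The median was -0.15 over the members and -0.02 over all genes, and 5 of the 36 lay above zero (44.1% of all genes did). An unadjusted p below 0.05 was reached by 22 members and by 30.9% of all genes. The ranges of F1 and LW overlapped for every member, and did not for 0.0437% of all genes. Without the 5 animals lying apart 15 were called, including all 12, and without slide 4 there were 7. Against CR, F1 had 2 members called, C8A and PROC, both higher (5.56%), beside 1.92% of all genes called and 0.840% called higher. These comparisons share animals, so their values are given side by side and not as independent results.

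Subunits of the same protein, and a few pairs of functionally linked proteins (C6 with C7, FGA with C3, F2 with SERPINC1), were compared across the 36 animals after removing the group means, for the 13 of 14 listed pairs that were measured. Pearson's r was 0.898 for C1QA with C1QB, 0.875 for C1QA with C1QC and 0.912 for C1QB with C1QC, with Spearman's rho of 0.875, 0.833 and 0.892. C1R with C1S gave r = 0.810 and rho = 0.865. The adjusted permutation p of these 4 values of r was 2.6e-05, from the smallest raw p that 100000 permutations can give. The fibrinogen chains gave r = 0.732 (rho 0.703) for FGB with FGG, 0.626 (0.679) for FGA with FGB and 0.601 (0.552) for FGA with FGG, with adjusted permutation p of 2.6e-05, 0.000152 and 0.000631. C6 with C7 gave 0.416 (0.449, adjusted permutation p = 0.0296). The chains of C8 did not follow each other in this way. C8B with C8G gave 0.380 (rho 0.351), with an adjusted permutation p of 0.0366 for r and 0.0679 for rho, while C8A gave 0.0596 with C8B and -0.157 with C8G. FGA with C3 (0.311) and F2 with SERPINC1 (0.159) did not pass. These tests were against zero. How often unrelated gene pairs reach such values of r on these arrays was not tested, and the pairs were not rerun without the animals lying apart.

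With the slide also removed, C8B with C8G no longer passed (adjusted permutation p = 0.0664) and FGA with C3 did (0.0386). Leaving out the 2 animals farthest from the median of the first gene changed no call, with r = 0.852 for C1QA with C1QB and 0.478 for FGA with FGG. In 10 of the 13 pairs r was above zero within each of the 4 slides of 8 arrays. In the Sscrofa11.1 gene order of RefSeq no other gene lies between C1QA and C1QC, C1QC and C1QB, C1R and C1S, FGG and FGA, FGA and FGB, C8B and C8A, C2 and CFB, or F7 and F10, and 2 genes lie between C7 and C6.

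Other genes of both cascades, not in the list of 39, were drawn from a list of 50, of which 39 were measured. Between temperatures 1 was called, CLU, which encodes clusterin, another plasma protein that binds the membrane attack complex, higher in HS by 0.32 (SE 0.0595, 95% interval 0.20 to 0.44, limma adjusted p = 0.00433). Over all genes 1.36% were called. Above zero lay 20 of the 39, with a median of 0.0026, unlike the tilt of the members. In CR minus LW, 18 of the 39 were called lower and none higher, with a median of -0.24. Over all genes 15.4% were called lower and 10.9% higher, with a median of -0.01. The largest were VSIG4, a complement receptor of Kupffer cells that is also among the macrophage markers, at -0.91, CFP (properdin, which steadies the alternative convertase) at -0.67, COLEC11 (a collectin) at -0.65, F13A1 at -0.64, FCN2 (a ficolin of the lectin route) at -0.59 and PROCR, the receptor of protein C, at -0.54. In F1 minus LW, 11 were called lower and none higher, with a median of -0.15. Over all genes 10.8% were called lower and 6.21% higher, with a median of -0.02. The 11 were led by FCN2 at -0.72, VSIG4 at -0.68, ITGB2 at -0.45, PROCR at -0.37, COLEC11 at -0.36 and FCN1 at -0.31. F1 exceeded CR for CPB2, which encodes an inhibitor of clot lysis, by 0.23.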

How the data were processed

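RNA from 36 pig livers was hybridised to one-colour Agilent arrays. The authors deposited, per the file headers, the signal intensity of every spot as written by Agilent Feature Extraction 10.10.1.1, and a table of log2 values that they had normalised and centred by gene. In that table the median correlation with the scanner values was 0.962 for a probe across arrays and 0.101 across probes, and the array medians lay at 7.66, so it gives differences on the log2 scale and no levels. That it was centred was read from these values. Which samples shared litters, pens or parents was not given by sample.

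From the scanner files, log2 of the median intensity was quantile-normalised over 60306 non-control spots, and 107 non-uniform spots were then set to missing. Probes well above background on fewer than 6 of the 36 arrays were dropped, which left 44796 of 60305. Of these, 23495 carried a gene name (file symbol, RefSeq accession, gene number, synonym or description), and centred probes were averaged over 11434 genes. Of the 92 member probes, 4 were named only by the pig protein name in the description. The test was that of limma 3.58.1 (R 4.3.3), with Benjamini-Hochberg adjustment over all genes at 0.05. Heat and breed differences came from a model of breed plus condition, and the differences within a breed and the breed by temperature interaction from a model of the 6 groups. Between 39644 and 44025 spots per array were well above background, none was saturated, and no pair of arrays was identical (highest correlation 0.994). The number of arrays limits the precision.

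Each array held 1 animal, and its slide was the only batch examined. The 5 slides held 4 to 8 arrays, each with as many TN as HS animals, and slide 1 held 4. Alternatives were Agilent's processed signal scaled to its 75th percentile, the authors' log2 table, normexp correction of the background (offset 50), no filter or a stricter one on dim probes, the brightest probe per gene, slide as a block, a trended and robust spread, leaving out each array or slide, and, chosen after seeing the data, leaving out the 5 animals lying apart or the probes named by a protein name only. The main test was checked on simulated data. Group values are printed for members called between temperatures, for up to 8 called members by size in each breed comparison, for the 5 with the smallest p for heat and for the interaction, and for 12 members fixed by name. A few items are not reported here. The members and the lists of other pathway genes and cell type markers were chosen with earlier results of these data known.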

Additional observations from a re-analysis of the deposited data

Results flagged for a closer look

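In each group of 6 animals, the gap between the highest or lowest animal and its neighbour was divided by the range of the group, for 22 members in 6 groups. Of these 132 checks, 9 passed Dixon's critical value for 6 animals, where chance passes about 1 group in 20. MBL2 gave 3 of them, each an animal below its group: CR HS 5 at 9.55 with the next animal at 13.26 (0.747), F1 TN 1 at 10.76 with the next at 13.07 (0.749), and CR TN 4 at 9.67 with the next at 12.56 (0.644). CR HS 6 lay below its group for both VTN (14.44 against 14.72, 0.72) and SERPIND1 (14.33 against 14.61, 0.71). LW HS 1 lay below its group for C9 (9.60 against 10.53, 0.679), CR TN 5 for CFI (15.95 against 16.29, 0.661) and CR HS 4 for F2 (16.11 against 16.21, 0.64). F1 HS 1, one of the animals lying apart on the first principal component, lay above its group for FGG (16.60 against 16.16, 0.635).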

How the results depend on the processing

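Over 51 alternatives, of which 41 left out an array or a slide, the number of members called between HS and TN ranged from 0 to 3 when an array or slide was left out. It was 0 with the processed signal, 1 with the authors' log2 table, 1 with the brightest probe and 1 without the 5 animals lying apart. The leave-out range was 16 to 22 for CR minus LW and 7 to 14 for F1 minus LW (7 without slide 4), while the other alternatives gave 17 to 23 and 12 to 16. It was from 0 to 2 for F1 minus CR (0 without slide 2), and from 0 to 1 against the mid-parent value. F1 minus CR gave 1 with the brightest probe and 1 without probes named by a protein name only. The mid-parent count was 0 with the processed signal, with the authors' table, with no filter on dim probes and with slide as a block, and 8 without the 5 animals. Within breeds the range was 0 to 0 for LW and CR and 0 to 1 for F1 (C8B), and the interaction gave 0 throughout. The number of gene pairs that passed was 9 with the slide removed, 8 of them shared (C8B with C8G replaced by FGA with C3), and 9, all shared, without 2 animals.

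Directions turned for C8A in CR minus LW (0.029 with the brightest probe, 0.34 without probes named by a protein name only) and in F1 minus CR (-0.13 without those probes). They also turned for values that were not called: C9 in HS minus TN (-0.015 without slide 4, with a range of -0.015 to 0.231 over arrays and slides left out), MBL2 in HS minus TN (0.10 without the 5 animals, and -0.57 to 0.38 over arrays and slides left out), and FGA in CR minus LW, which lay at zero (0.012 with the brightest probe, 0.0205 with slide as a block, 0.0445 without the 5 animals, and -0.0921 to 0.0781 over arrays and slides left out). The causes were not tested. In CR minus LW the calls of the C1q chains, C4BPA, FGG, PROC, PROS1, SERPINC1, F2, PLG, C5 and C6 held in all 51. No paired analysis was possible because the replicate numbers only name animals in accession order. Every member probe stood well above background on every array, while the probes of C8A, VTN and F9 disagreed in CR minus LW.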
